A study of Homo sapiens with 24 samples.

Results

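DNA replication in S phase was followed here through 42 genes, taken by symbol from a list of origin licensing, replication fork, nucleotide supply and E2F target genes. All 42 were found, each in 1 of the 60564 rows of the expression table, and all 42 passed the filter of at least 1 FPKM in at least 3 libraries, as did 15903 genes in all. FPKM is a fragment count corrected for transcript length and for the mapped total of the library. The cells were 2 human neuroblastoma lines, SK-N-BE(2), with MYCN amplification, and SH-SY5Y, without it. NDUFS6, a subunit of complex I of the mitochondrial respiratory chain, was lowered (knockdown) by a short hairpin RNA from a lentivirus or raised (overexpression) by its full-length coding sequence from a lentivirus. Per line there were 3 libraries each of knockdown cells, cells with the empty vector of the knockdown, overexpression cells and cells with the empty vector of the overexpression, 24 libraries in 8 groups. All cells, controls included, had been infected and selected with puromycin, and were grown in the same medium with serum. The sources used here do not give the number of hairpins or of separate infections behind a group, so p-values reflect library-to-library spread that may be technical.

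Replication starts when the origin recognition complex, with CDC6 and CDT1, loads the ring of MCM2 to MCM7 onto DNA in G1 phase, a step called licensing. In S phase CDC45 and the GINS complex turn that ring into an active helicase, and the polymerases, the sliding clamp PCNA and its loader, replication factor C, copy the strands. Many of these genes are transcribed by E2F factors once the retinoblastoma protein is phosphorylated.

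A promoter window of each of 6 members is shown, as examples of genes that moved apart or together in the lines. Against the empty vector of the knockdown, CDC6, DTL, MCM6 and E2F1 were higher with knockdown in SK-N-BE(2) and either lower or not called in SH-SY5Y, while PCNA and LIG1 were lower in both. Against the other empty vector control of SK-N-BE(2), the knockdown changes of MCM6, E2F1 and LIG1 were not called. The windows come from RefSeq (GRCh38.p14), run 5′ to 3′ on the strand of the gene from 250 bases before to 50 bases after the start, and lie at chr17:40287629-40287928 (plus strand), chr1:212035498-212035797 (plus), chr2:135876394-135876693 (minus), chr20:33686336-33686635 (minus), chr20:5126573-5126872 (minus) and chr19:48170295-48170594 (minus). Their identifiers in the expression table are ENSG00000094804 (CDC6), ENSG00000143476 (DTL), ENSG00000076003 (MCM6), ENSG00000101412 (E2F1), ENSG00000132646 (PCNA) and ENSG00000105486 (LIG1). Capitals mark matches on either strand to the E2F letters TTTCGCGC, TTTGGCGC, TTTCCCGC or TTTGGCGG.
CDC6: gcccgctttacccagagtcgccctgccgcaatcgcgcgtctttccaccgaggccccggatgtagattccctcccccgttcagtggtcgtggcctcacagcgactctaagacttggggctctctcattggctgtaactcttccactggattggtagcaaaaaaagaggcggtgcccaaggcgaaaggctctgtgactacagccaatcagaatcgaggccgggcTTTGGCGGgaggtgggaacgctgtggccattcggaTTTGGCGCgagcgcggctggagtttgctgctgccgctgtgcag
DTL: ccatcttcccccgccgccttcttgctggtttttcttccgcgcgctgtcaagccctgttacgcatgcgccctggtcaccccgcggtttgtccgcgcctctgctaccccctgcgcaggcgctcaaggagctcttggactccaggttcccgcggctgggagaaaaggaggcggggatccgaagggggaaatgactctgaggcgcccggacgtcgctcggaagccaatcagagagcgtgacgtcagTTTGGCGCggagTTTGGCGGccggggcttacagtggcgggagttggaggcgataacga
MCM6: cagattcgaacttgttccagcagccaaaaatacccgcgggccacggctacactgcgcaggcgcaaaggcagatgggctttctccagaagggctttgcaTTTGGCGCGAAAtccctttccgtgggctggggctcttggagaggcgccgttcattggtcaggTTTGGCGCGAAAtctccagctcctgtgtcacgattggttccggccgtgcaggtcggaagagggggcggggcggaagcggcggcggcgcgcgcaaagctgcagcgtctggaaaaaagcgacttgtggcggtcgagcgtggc
E2F1: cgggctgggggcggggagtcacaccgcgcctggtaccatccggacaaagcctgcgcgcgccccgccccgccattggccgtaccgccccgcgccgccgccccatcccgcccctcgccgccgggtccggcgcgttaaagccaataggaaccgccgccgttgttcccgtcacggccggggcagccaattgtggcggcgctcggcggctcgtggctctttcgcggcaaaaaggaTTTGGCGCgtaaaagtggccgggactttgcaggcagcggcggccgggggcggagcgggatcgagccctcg
PCNA: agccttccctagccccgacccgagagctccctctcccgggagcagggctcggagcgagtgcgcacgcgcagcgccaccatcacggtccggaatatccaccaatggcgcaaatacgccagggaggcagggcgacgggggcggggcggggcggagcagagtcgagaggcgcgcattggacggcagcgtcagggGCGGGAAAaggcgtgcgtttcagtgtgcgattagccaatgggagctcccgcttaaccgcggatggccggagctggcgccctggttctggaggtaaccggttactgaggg
LIG1: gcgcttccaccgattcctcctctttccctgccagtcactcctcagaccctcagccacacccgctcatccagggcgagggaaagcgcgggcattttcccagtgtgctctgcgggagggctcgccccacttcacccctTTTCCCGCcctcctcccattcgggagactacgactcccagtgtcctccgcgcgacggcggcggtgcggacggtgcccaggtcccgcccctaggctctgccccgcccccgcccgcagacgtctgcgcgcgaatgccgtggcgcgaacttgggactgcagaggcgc

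In these windows positions of the first base of a match, counted from the start, were -28 and 8 in CDC6 and -8 and 5 in DTL. MCM6 had 4 matches in 2 overlapping pairs on opposite strands, at -152 and -148 and again at -90 and -86. The single matches of E2F1, PCNA and LIG1 began at -20, -59 and -114. Another promoter window of PCNA, at chr20:5119909-5120208 (minus strand), held 0 matches and is not shown. Of the members, 37 had a window and 24 held the E2F letters, in 25 of 47 windows (53.2%), against 1177 of all 35116 promoter windows of the same length (3.35%). The letters CCAAT, also read on both strands, were in 29 member windows (61.7%) and in 34.6% of all windows. Among members with a window, the E2F letters were present in 5 of the 8 that were higher and in 15 of the 20 that were lower with knockdown in SK-N-BE(2), and in 22 of the 32 that were lower with knockdown in SH-SY5Y. A match describes the letters only and is not evidence of binding.

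NDUFS6 followed the labels in each comparison. It ranged over 1.09 to 1.61 FPKM with knockdown and 9.29 to 12.2 FPKM in the control libraries of SK-N-BE(2), and over 3.11 to 4.98 and 11.1 to 12.1 FPKM in SH-SY5Y. With overexpression the ranges were 14.9 to 19 FPKM against 11.8 to 13.9 FPKM in controls of SK-N-BE(2), a small rise (log2 change 0.39), and 199 to 214 against 10.2 to 11.5 FPKM in SH-SY5Y (log2 change 4.13). Depth is unknown, since the table holds no counts. The noradrenergic markers HAND2, GATA3 and ISL1 were present in both lines, while TH was near 0 in SH-SY5Y. Their level was not stable. Summed over 11 noradrenergic markers it was 557 to 702 FPKM with knockdown in SK-N-BE(2), against 854 to 874 FPKM in its control. In SH-SY5Y it was 675 to 707 against 997 to 1009 FPKM. The overexpression controls summed to 1208 to 1313 FPKM in SK-N-BE(2) and 1334 to 1373 FPKM in SH-SY5Y. The part of these shifts in the results below was not tested. The markers PTPRC and CD3E of immune cells, PECAM1 of endothelium and SOX10 of Schwann cells were at or near 0 in all groups. The 5 immune markers summed to 8.98 to 11.8 FPKM with knockdown in SH-SY5Y, against 2.02 to 2.77 FPKM in its control. Elsewhere they reached at most 0.93 FPKM. Schwann cell markers summed to 2.08 to 2.92 FPKM with knockdown in SK-N-BE(2), against 1.08 to 1.39 FPKM in its control. Sums over all groups were 0.53 to 2.81 FPKM for epithelial markers and at most 0.25 FPKM for endothelial ones. Each log2 change below is a difference of log2(FPKM + 1), a scale that shrinks the change of weakly expressed genes, and a gene was called at a limma adjusted p under 0.05.

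**Figure D1:**
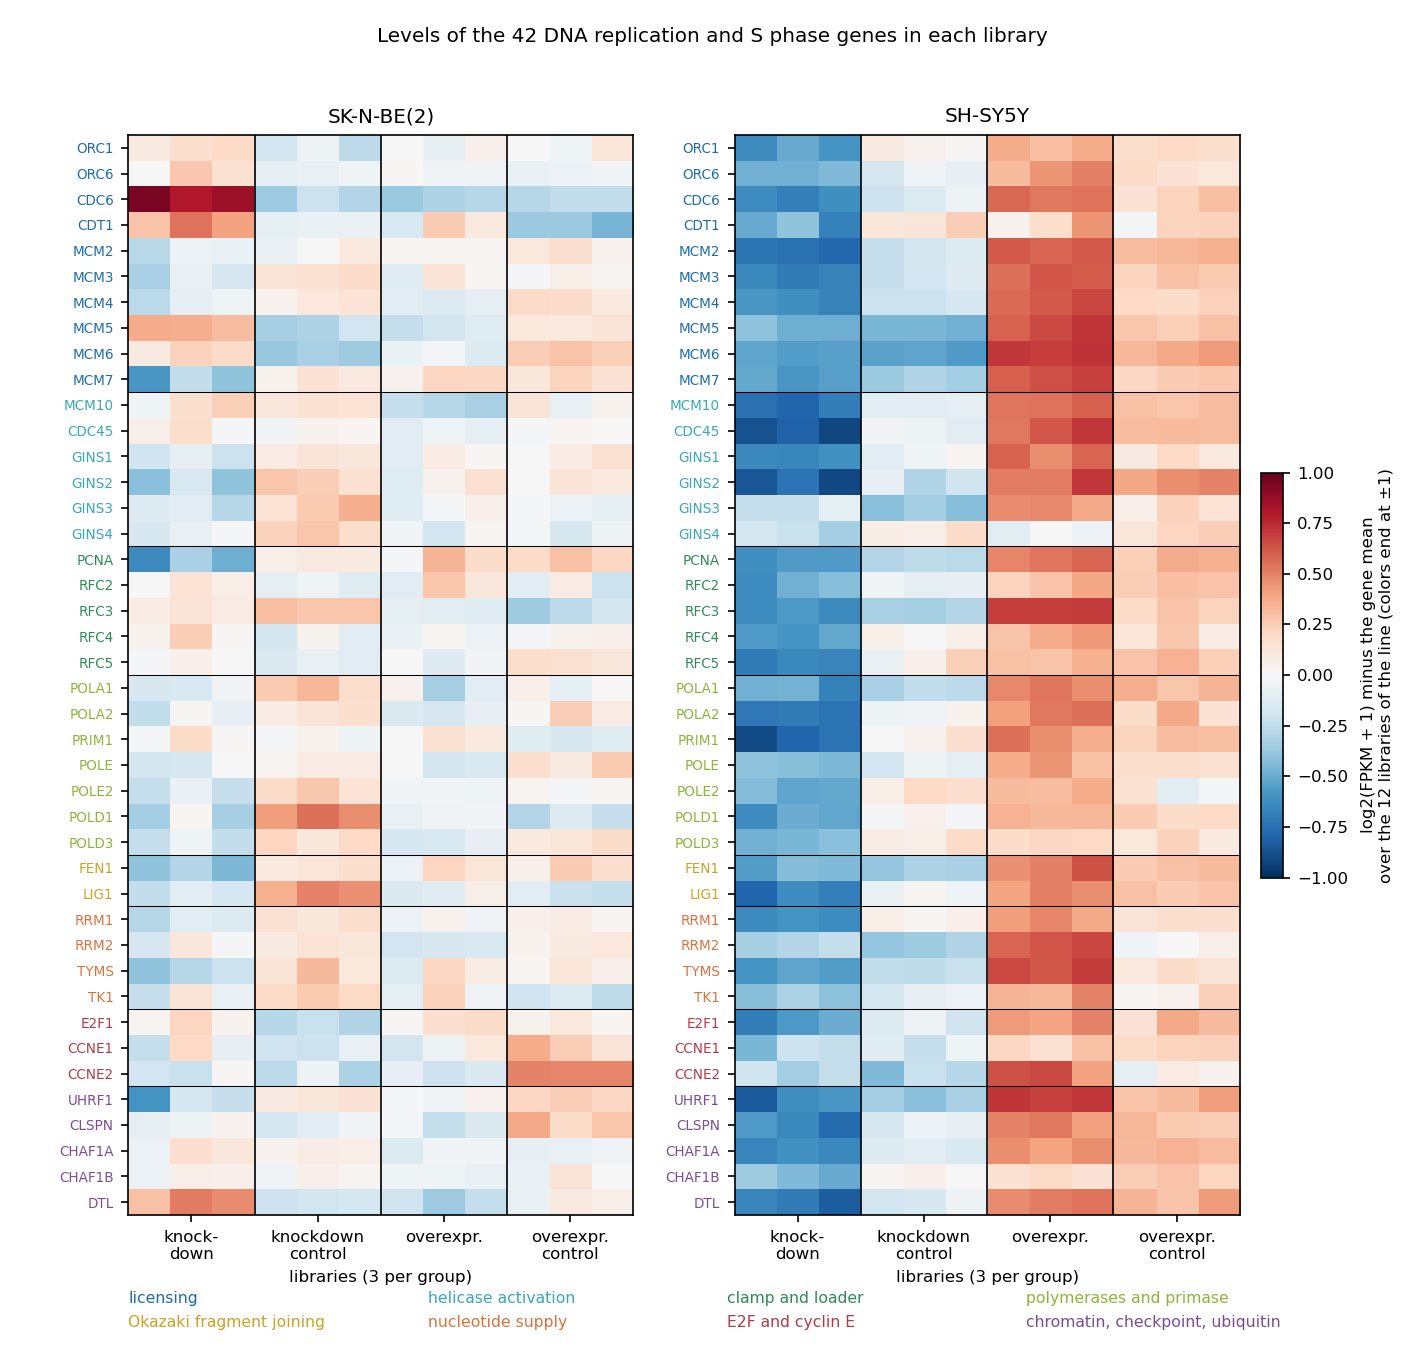
Color shows log2(FPKM + 1) of each of the 42 genes (rows, colored by role) in each library (columns, 3 per group), minus the mean of the gene over the 12 libraries of the line, with colors ending at 1 in either direction. In SH-SY5Y nearly all rows are lowest with knockdown and highest with overexpression, whereas the knockdown columns of SK-N-BE(2) mix higher rows such as CDC6, MCM5 and DTL with lower rows such as PCNA, POLD1 and LIG1.

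Against its own empty vector control, knockdown of NDUFS6 in SK-N-BE(2) split the replication genes. Most licensing factors rose, led by CDC6, CDT1, MCM5 and MCM6, and so did E2F1 and DTL, while the clamp PCNA, polymerase subunits, both Okazaki fragment enzymes and all 4 nucleotide supply enzymes fell. Of the 42 genes, 9 were called higher (21.4%) and 23 lower (54.8%), and 10 were not called. Among all 15903 tested genes 27.4% were called higher and 28.3% lower, so the share of members called higher was near the background and the share called lower was above it. With each library scaled to a fixed sum the members split into 14 higher and 17 lower. Against the other empty vector control of the line, 4 of the 9 rises were not called, those of ORC1, MCM6, RFC4 and E2F1. Of the 23 falls, 7 were not called against that other control, those of GINS3, GINS4, POLA1, POLD1, LIG1, RRM2 and TK1, and RFC3 was called higher there. Against the knockdown's own control the median log2 change was -0.16 over the members and -0.013 over all tested genes. In bulk RNA, fewer cells in S phase and less RNA per cell cannot be told apart.

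Of the 10 licensing factors, 6 rose and 4 fell. CDC6, an ATPase that brings the MCM ring to the origin complex, measured 26.7, 23.9 and 24.9 FPKM with knockdown, and its controls 10.1, 11.3 and 10.7 FPKM. The CDC6 groups did not overlap, the knockdown libraries being the higher, and the log2 change was 1.16 (SE 0.0508, limma adjusted p = 2.02e-13). Its mean was 2.35-fold that of the controls, and it was the only member to rise by at least 1 on the log2 scale. For MCM5, a subunit of the MCM ring, the knockdown libraries gave 13.1, 13.1 and 12.5 FPKM, against 7.71, 7.81 and 8.57 FPKM in the control libraries. Each MCM5 value with knockdown was higher than each control value, a log2 change of 0.62 (SE 0.0432, limma adjusted p = 2.11e-10). Smaller rises were called for MCM6 (0.52), CDT1 (0.49), ORC1 (0.32) and ORC6 (0.21), the last pair being subunits of the origin recognition complex. The other 4 subunits of the MCM ring fell, with log2 changes from -0.50 for MCM7 to -0.14 for MCM2, so the 6 subunits of 1 hexamer did not move together.

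Helicase activation had 4 falls among 6 members, and MCM10 and CDC45 were not called. GINS2, a subunit of the GINS complex, held 5.53, 6.83 and 5.59 FPKM in the knockdown libraries, against 9.55, 9.3 and 8.68 FPKM in their controls. Between groups, GINS2 did not overlap and was lower with knockdown, by a log2 change of -0.55 (SE 0.0805, limma adjusted p = 8.23e-06). GINS3, another GINS subunit, measured 4.65, 4.72 and 4.06 FPKM with knockdown, and its controls 5.76, 6.36 and 6.92 FPKM. All 3 GINS3 values of the knockdown libraries lay below every control value, with a log2 change of -0.42 (SE 0.0667, limma adjusted p = 1.89e-05). At the clamp and its loader the members differed in direction. For PCNA, the sliding clamp that tethers polymerases to DNA, the knockdown libraries gave 59.6, 74.4 and 66.1 FPKM, against 97.4, 99.4 and 99.6 FPKM in the control libraries. The PCNA groups did not overlap, the knockdown libraries being the lower, and the log2 change was -0.57 (SE 0.0724, limma adjusted p = 1.42e-06). RFC3, a subunit of the clamp loader, held 18.8, 19.5 and 18.8 FPKM in the knockdown libraries, against 22.1, 21.6 and 21.7 FPKM in their controls. Each RFC3 value with knockdown was lower than each control value, a log2 change of -0.19 (SE 0.0372, limma adjusted p = 0.000228). RFC4, also a loader subunit, was called higher (0.18), and RFC2 and RFC5 were not called.

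Polymerase and primase genes fell in 6 of 7 cases, PRIM1 being the exception at 0.068 without a call. POLD1, the catalytic subunit of DNA polymerase delta, measured 4.52, 6.06 and 4.56 FPKM with knockdown, and its controls 8.33, 9.22 and 8.65 FPKM. Between groups, POLD1 did not overlap and was lower with knockdown, by a log2 change of -0.70 (SE 0.0694, limma adjusted p = 4.7e-08). POLD1 shares exon sequence with another gene on its strand, so its value is uncertain. For POLA1, the catalytic subunit of DNA polymerase alpha, the knockdown libraries gave 9.17, 9.2 and 10.1 FPKM, against 12.6, 13.3 and 11.8 FPKM in the control libraries. All 3 POLA1 values of the knockdown libraries lay below every control value, with a log2 change of -0.37 (SE 0.0748, limma adjusted p = 0.000263). Both enzymes that finish Okazaki fragments fell. LIG1, the ligase that seals the fragments, held 3.34, 3.75 and 3.55 FPKM in the knockdown libraries, against 5.57, 6.25 and 6.06 FPKM in their controls. The LIG1 groups did not overlap, the knockdown libraries being the lower, and the log2 change was -0.61 (SE 0.0595, limma adjusted p = 3.01e-08). FEN1, the nuclease that trims their flaps, measured 27.7, 30.0 and 26.7 FPKM with knockdown, and its controls 39.5, 40.1 and 41.8 FPKM. Each FEN1 value with knockdown was lower than each control value, a log2 change of -0.51 (SE 0.065, limma adjusted p = 1.34e-06). FEN1 also shares exon sequence with a neighbor on its strand.

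All 4 nucleotide supply genes fell. For TYMS, thymidylate synthase, the knockdown libraries gave 12, 13.2 and 13.9 FPKM, against 17.9, 20.6 and 17.5 FPKM in the control libraries. Between groups, TYMS did not overlap and was lower with knockdown, by a log2 change of -0.49 (SE 0.0686, limma adjusted p = 4.96e-06). RRM1, the large subunit of ribonucleotide reductase, held 41, 46.1 and 45.5 FPKM in the knockdown libraries, against 55.5, 54.2 and 56.6 FPKM in their controls. All 3 RRM1 values of the knockdown libraries lay below every control value, with a log2 change of -0.32 (SE 0.0409, limma adjusted p = 1.32e-06). RRM2, the small subunit, and TK1, thymidine kinase, changed less (-0.14 and -0.28). E2F1, a transcription factor of the G1 to S transition, measured 18.1, 20.8 and 18.2 FPKM with knockdown, and its controls 14.4, 15.1 and 14.2 FPKM. The E2F1 groups did not overlap, the knockdown libraries being the higher, and the log2 change was 0.36 (SE 0.0667, limma adjusted p = 0.000115). Neither cyclin E gene was called. For DTL, a substrate receptor that marks CDT1 for degradation at PCNA, the knockdown libraries gave 26.2, 30.8 and 29.8 FPKM, against 18.2, 18.5 and 18.6 FPKM in the control libraries. Each DTL value with knockdown was higher than each control value, a log2 change of 0.62 (SE 0.0621, limma adjusted p = 5.11e-08). UHRF1, which reads hemimethylated DNA behind the fork, held 9.95, 13.7 and 13.1 FPKM in the knockdown libraries, against 16.6, 17 and 17.3 FPKM in their controls. Between groups, UHRF1 did not overlap and was lower with knockdown, by a log2 change of -0.45 (SE 0.079, limma adjusted p = 6.68e-05). CLSPN, CHAF1A and CHAF1B were not called.

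Against the other empty vector control of SK-N-BE(2), 22.5% of all tested genes were called higher and 25.2% lower with knockdown. The rises of CDC6 (1.13, limma adjusted p = 4.55e-13), MCM5, CDT1, ORC6 and DTL were also called against that control, as were 15 of the 23 falls, whereas ORC1, MCM6, RFC4 and E2F1 were not. LIG1 (0.013, limma adjusted p = 0.887) and POLD1 (0.0042, limma adjusted p = 0.973) did not differ by a call from that control, nor did GINS3, GINS4, POLA1, RRM2 and TK1, and RFC3 was called in the opposite direction (0.36, limma adjusted p = 1.04e-07). With 1 library left out, the call was lost for MCM2 without knockdown 1 or control 3 (log2 -0.099 to -0.071, limma adjusted p 0.134 to 0.189) and RFC4 without knockdown 2 or control 1 or 3 (log2 0.11 to 0.17, limma adjusted p 0.0516 to 0.135). It was lost for RRM2 without knockdown 1 or 3 or control 2 or 3 (log2 -0.14 to -0.064, limma adjusted p 0.0504 to 0.239) and TK1 without knockdown 1 (log2 -0.19, limma adjusted p 0.0781). Of the called members without a value here, 2 lost the call when 1 library was left out. With a fixed sum per library the calls of MCM2 (0.488), POLA2 (0.0843), POLE (0.261), RFC3 (0.0608), RRM2 (0.529) and TK1 (0.0531) were lost, and with the spread of the groups compared alone those of MCM2 (0.149), RFC4 (0.0952) and RRM2 (0.153), each with its limma adjusted p. Of the 7 tested mesenchymal markers, 3 were called higher and 3 lower with knockdown in SK-N-BE(2), with sums of 267 to 284 FPKM in the knockdown libraries, against 213 to 216 FPKM in the controls.

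Knockdown in SH-SY5Y lowered the replication genes nearly throughout. Falls were called in every role, from origin licensing through helicase activation and the polymerases to nucleotide supply, and were led by PRIM1, CDC45 and RFC5. Of the 42 genes, 35 were called lower (83.3%), 1 higher and 6 not called, against 29.6% lower and 26.3% higher among all tested genes. With a fixed sum per library 38 were lower and 0 higher. The median log2 change was -0.47 over the members and -0.011 over all tested genes. In 36 members every knockdown library lay below every control library, which held for 34% of all tested genes. No fall reached 1 on the log2 scale. MCM5, MCM6, FEN1, RRM2, CCNE1 and CCNE2 were not called, with log2 changes from -0.17 to 0.059.

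In licensing, 8 of 10 genes fell. CDT1, the licensing factor that loads MCM with CDC6, measured 7.2, 7.78 and 6.26 FPKM with knockdown, and its controls 11.6, 11.6 and 12.8 FPKM. All 3 CDT1 values of the knockdown libraries lay below every control value, with a log2 change of -0.69 (SE 0.103, limma adjusted p = 9.34e-06). For ORC1, the ATPase subunit of the origin recognition complex, the knockdown libraries gave 5.42, 5.98 and 5.56 FPKM, against 9.5, 9.19 and 8.96 FPKM in the control libraries. The ORC1 groups did not overlap, the knockdown libraries being the lower, and the log2 change was -0.62 (SE 0.0549, limma adjusted p = 6.75e-09). In helicase activation 5 of 6 fell. CDC45, a core part of the active helicase, held 5.6, 5.89 and 5.41 FPKM in the knockdown libraries, against 10.9, 10.6 and 10.2 FPKM in their controls. Each CDC45 value with knockdown was lower than each control value, a log2 change of -0.80 (SE 0.0484, limma adjusted p = 1.88e-11). GINS2, a subunit of the GINS complex, measured 4.94, 5.46 and 4.75 FPKM with knockdown, and its controls 9.16, 7.76 and 8.38 FPKM. Between groups, GINS2 did not overlap and was lower with knockdown, by a log2 change of -0.64 (SE 0.0805, limma adjusted p = 9.81e-07). MCM10, which helps to start the helicase, fell by the same amount as GINS2 to 2 decimals (-0.64). GINS3 was the 1 member called higher (0.20, SE 0.0667, limma adjusted p = 0.0139), but it was lower against the other control (-0.33, limma adjusted p = 0.000251). With 1 library left out, the call was lost for GINS3 without knockdown 3 (log2 0.16, limma adjusted p 0.0806).

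All 5 clamp and loader genes and all 7 polymerase and primase genes fell. For RFC5, a clamp loader subunit, the knockdown libraries gave 7.42, 7.77 and 7.64 FPKM, against 12, 13.1 and 15.1 FPKM in the control libraries. All 3 RFC5 values of the knockdown libraries lay below every control value, with a log2 change of -0.74 (SE 0.0563, limma adjusted p = 7.11e-10). RFC4, another loader subunit, held 8.69, 8.51 and 9.05 FPKM in the knockdown libraries, against 14, 13.4 and 13.9 FPKM in their controls. The RFC4 groups did not overlap, the knockdown libraries being the lower, and the log2 change was -0.60 (SE 0.0632, limma adjusted p = 9.01e-08). PCNA fell by less (-0.31). PRIM1, the catalytic subunit of primase, measured 8.41, 9.08 and 9.47 FPKM with knockdown, and its controls 16.5, 16.9 and 18.6 FPKM. Each PRIM1 value with knockdown was lower than each control value, a log2 change of -0.88 (SE 0.0607, limma adjusted p = 1.53e-10). For POLA2, the accessory subunit of polymerase alpha, the knockdown libraries gave 4.15, 4.21 and 4.07 FPKM, against 7.14, 7.23 and 7.67 FPKM in the control libraries. Between groups, POLA2 did not overlap and was lower with knockdown, by a log2 change of -0.70 (SE 0.07, limma adjusted p = 4.09e-08). PRIM1 and POLA2 both share exon sequence with another gene on their strand. LIG1, the ligase of Okazaki fragments, held 5.44, 6.27 and 5.95 FPKM in the knockdown libraries, against 9.63, 10.4 and 9.86 FPKM in their controls. All 3 LIG1 values of the knockdown libraries lay below every control value, with a log2 change of -0.67 (SE 0.0595, limma adjusted p = 6.75e-09).

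Nucleotide supply fell in 3 of 4 genes, with RRM2 at 0.059 and not called. RRM1, the large ribonucleotide reductase subunit, measured 24.5, 25.2 and 24.6 FPKM with knockdown, and its controls 40.6, 39 and 40.0 FPKM. The RRM1 groups did not overlap, the knockdown libraries being the lower, and the log2 change was -0.66 (SE 0.0409, limma adjusted p = 2.47e-11). For TYMS, which makes thymidylate, the knockdown libraries gave 31.6, 33.1 and 32.5 FPKM, against 40.5, 40.3 and 41.3 FPKM in the control libraries. Each TYMS value with knockdown was lower than each control value, a log2 change of -0.32 (SE 0.0686, limma adjusted p = 0.000479). TYMS overlaps ENOSF1 on the opposite strand, and whether counting used strand is not stated in the labels. E2F1, the E2F activator, held 10.2, 11.2 and 11.9 FPKM in the knockdown libraries, against 15.6, 16.5 and 14.8 FPKM in their controls. Between groups, E2F1 did not overlap and was lower with knockdown, by a log2 change of -0.46 (SE 0.0667, limma adjusted p = 6.04e-06). All 5 chromatin, checkpoint and ubiquitin factors fell. DTL, the CDT1 degradation factor, measured 13.8, 13.2 and 12.1 FPKM with knockdown, and its controls 19.3, 19.8 and 21.4 FPKM. All 3 DTL values of the knockdown libraries lay below every control value, with a log2 change of -0.59 (SE 0.0621, limma adjusted p = 7.37e-08). For CLSPN, claspin, an adaptor of the replication checkpoint, the knockdown libraries gave 4.88, 4.56 and 4.1 FPKM, against 6.76, 7.34 and 7.22 FPKM in the control libraries. The CLSPN groups did not overlap, the knockdown libraries being the lower, and the log2 change was -0.56 (SE 0.066, limma adjusted p = 4.26e-07).

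All 35 falls were also called against the other empty vector control of SH-SY5Y, where all 42 members were called lower, as were 31.7% of all tested genes, 26.5% being higher. The knockdown control was itself called lower than that control in 35 members and higher in 0. The swap thus enlarged the falls (median log2 change -0.79) and was not a separate check of them. Markers of other cell states moved with this comparison. Of 7 tested mesenchymal neuroblastoma markers, 5 were called higher and 1 lower, and their summed level was 518 to 538 FPKM in the knockdown libraries, against 153 to 161 FPKM in the controls. All 8 tested fibroblast and stroma markers were called higher, with sums of 262 to 274 against 122 to 126 FPKM. CD68, a lysosomal macrophage marker, averaged 10.1 ± 1.5 against 1.89 ± 0.371 FPKM (SD, n = 3), while PTPRC, carried by all leukocytes, was near 0. CD68 shares exon sequence with another gene, so its value is uncertain. Their part in the fall of the replication genes was not tested.

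**Figure D2:**
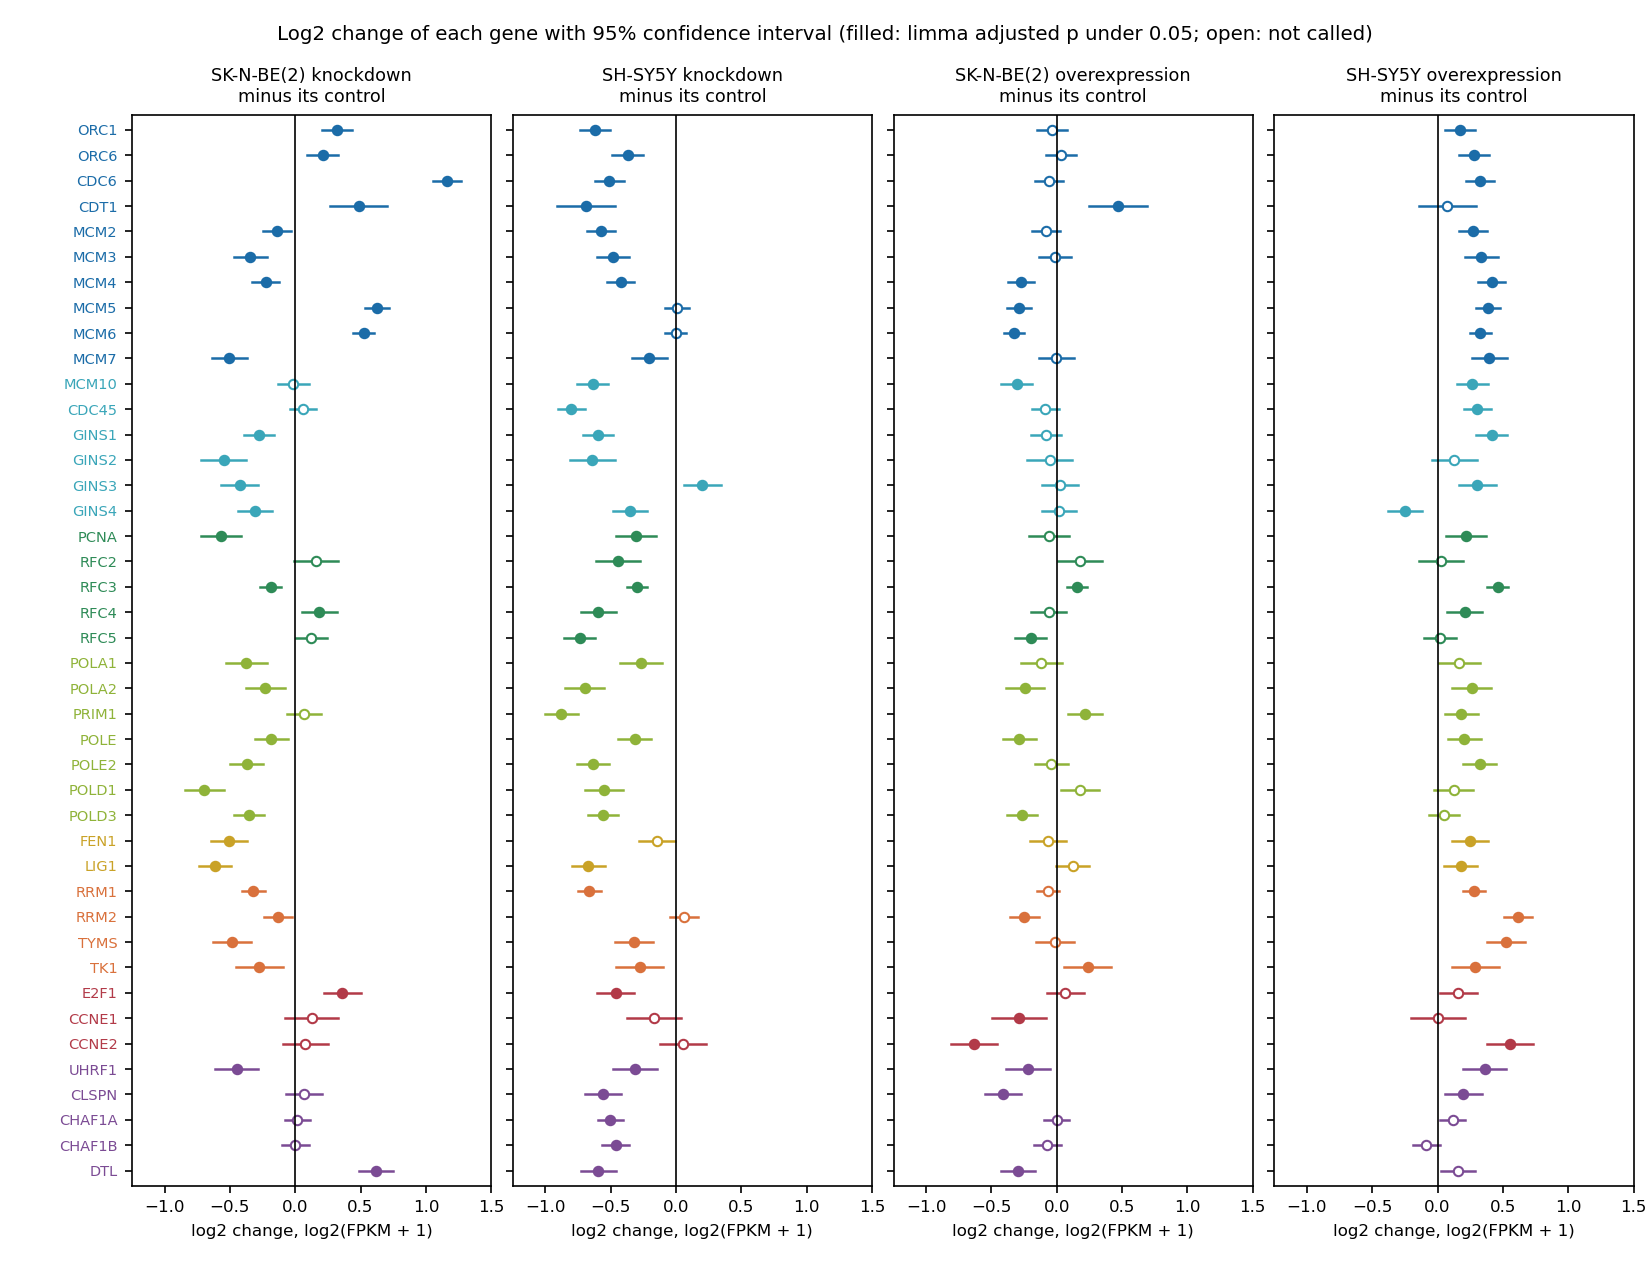
Points give the log2 change of each gene on the log2(FPKM + 1) scale and lines its 95% confidence interval, for knockdown and overexpression minus their own controls in each line (n = 3 per group). Filled points were called (limma adjusted p under 0.05): 9 higher and 23 lower with knockdown in SK-N-BE(2), 1 and 35 in SH-SY5Y, 4 and 14 with overexpression in SK-N-BE(2), and 29 and 1 in SH-SY5Y.

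The effect of knockdown on replication genes differed between the lines, with CDC6, DTL, CDT1, PRIM1, ORC1 and CDC45 at the head. NDUFS6 averaged 1.33 FPKM with knockdown and 11.2 FPKM in its control in SK-N-BE(2), but 4.02 and 11.5 FPKM in SH-SY5Y. The lines were thus not compared at a matched level of NDUFS6. As a test of the difference itself, the change in SK-N-BE(2) minus that in SH-SY5Y was called positive for 24 of 42 members (57.1%) and negative for 5, against 29.5% and 26.3% of all tested genes. A fixed sum per library, which shifted the median difference of all genes to 0.16, gave 30 positive and 1 negative, and ended the negative calls of FEN1 (0.0647), MCM7 (0.272), PCNA (0.567) and RRM2 (0.976), with the limma adjusted p in parentheses. The largest difference was in CDC6, whose log2 change was 1.16 in SK-N-BE(2) and -0.51 in SH-SY5Y, a difference of 1.67 (SE 0.0718, limma adjusted p = 1.64e-13). DTL changed by 0.62 in SK-N-BE(2) and -0.59 in SH-SY5Y, a difference of 1.21 (SE 0.0878, limma adjusted p = 4.33e-10). CDT1 changed by 0.49 in SK-N-BE(2) and -0.69 in SH-SY5Y, a difference of 1.17 (SE 0.146, limma adjusted p = 9.43e-07). The other large differences were in PRIM1 (0.95, SE 0.0859, limma adjusted p = 1.18e-08), ORC1 (0.94, SE 0.0777, limma adjusted p = 2.98e-09) and CDC45 (0.86, SE 0.0684, limma adjusted p = 1.69e-09). For CDC6, DTL, CDT1 and ORC1 the change was called in opposite directions in the 2 lines. The same opposite calls were made for E2F1, ORC6 and RFC4. The 5 members with a negative difference were MCM7, GINS3, PCNA, FEN1 and RRM2, and for PCNA it was -0.26 (SE 0.102, limma adjusted p = 0.0378). With 1 library left out, the call was lost for PCNA without SK-N-BE(2) knockdown 1 or 3 or SK-N-BE(2) control 1 or 2 or 3 or SH-SY5Y knockdown 2 or 3 or SH-SY5Y control 1 or 2 or 3 (log2 -0.27 to -0.18, limma adjusted p 0.0502 to 0.125) and RRM2 without SK-N-BE(2) knockdown 1 or SK-N-BE(2) control 2 or SH-SY5Y knockdown 3 or SH-SY5Y control 1 (log2 -0.18 to -0.12, limma adjusted p 0.0568 to 0.0873). Of the called members without a value here, 2 lost the call when 1 library was left out.

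Some falls were called in both lines. Of the 23 genes called lower with knockdown in SK-N-BE(2), 20 were also called lower in SH-SY5Y, which was 87% of the first list and 57.1% of the 35 in the second. Since 83.3% of the 42 members were called lower in SH-SY5Y, the overlap is close to what that share alone gives. Among all tested genes 37.4% of those lower in SK-N-BE(2) were also lower in SH-SY5Y. The genes lower in both lines included PCNA, LIG1, MCM2, MCM3, MCM4, MCM7, RRM1, TYMS, POLD1 and UHRF1. Of these, LIG1 (0.013) and POLD1 (0.0042) were not called with knockdown against the other empty vector control of SK-N-BE(2), while the rest were also called lower there.

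**Figure D3:**
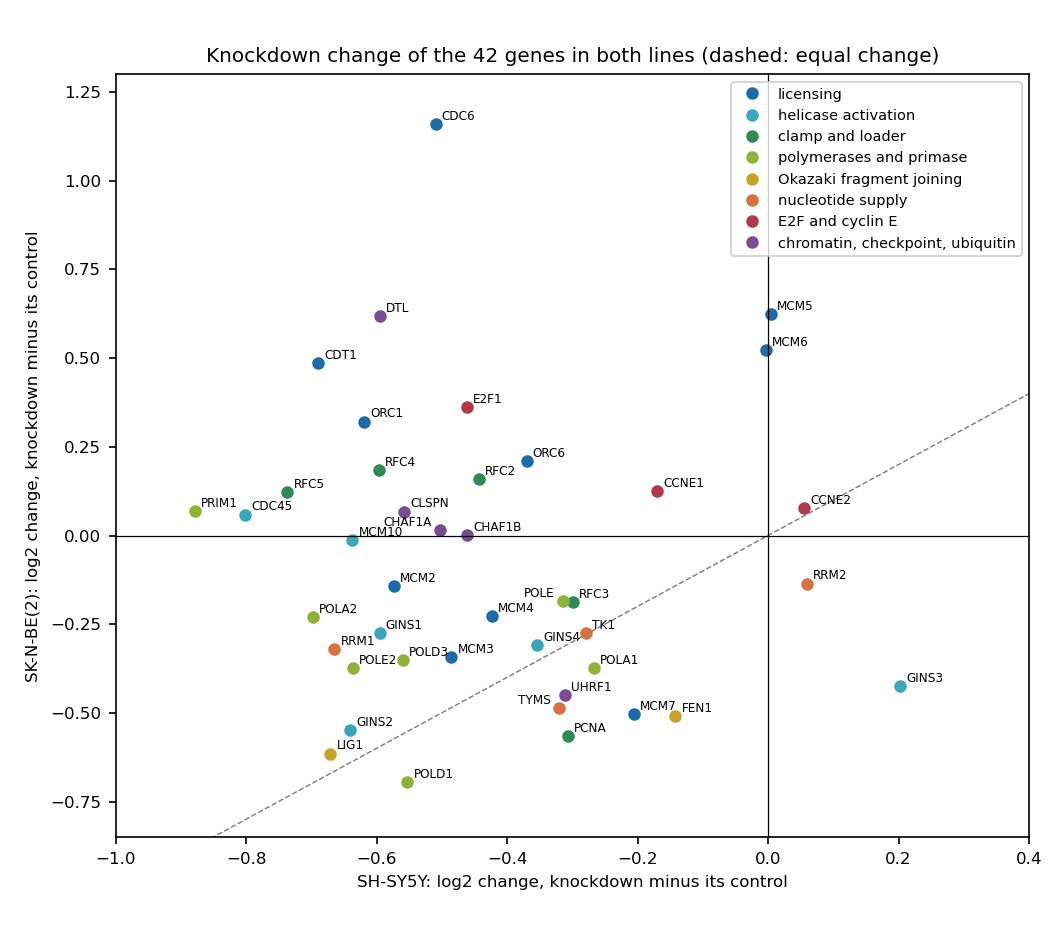
Each point is 1 of the 42 genes, colored by role, with its log2 change on knockdown in SH-SY5Y on the horizontal axis and in SK-N-BE(2) on the vertical axis, and a dashed line of equal change. CDC6 stands highest, at 1.16 in SK-N-BE(2) and -0.51 in SH-SY5Y, while LIG1, at -0.61 and -0.67, lies near the line. Against the other empty vector control of SK-N-BE(2) the change of LIG1 was 0.013.

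Overexpression in SK-N-BE(2), where NDUFS6 itself rose little, lowered 14 of the 42 replication genes and raised 4. Against the overexpression control, cyclin E2, claspin and MCM6 fell the most and CDT1 rose. These changes depended on the control. Against the other empty vector control of the line CCNE2 (0.067), CLSPN (-0.029) and CDT1 (0.14) were not called, and MCM6 was called higher (0.28). Of the 42 genes, 4 were called higher and 14 lower (33.3%), against 12.9% and 16.8% of all tested genes, and 24 were not called; a fixed sum per library gave 2 and 18. The median log2 change was -0.065 over the members and -0.0078 over all tested genes.

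At licensing, 1 gene rose and 3 fell. CDT1, the MCM loader, held 14.6, 19.7 and 17.5 FPKM in the overexpression libraries, against 12.4, 12.4 and 11.6 FPKM in their controls. Each CDT1 value with overexpression was higher than each control value, a log2 change of 0.47 (SE 0.103, limma adjusted p = 0.00238). MCM6, an MCM ring subunit, measured 29.6, 30.4 and 28.1 FPKM with overexpression, and its controls 36.8, 38 and 36.6 FPKM. Between groups, MCM6 did not overlap and was lower with overexpression, by a log2 change of -0.33 (SE 0.0373, limma adjusted p = 4.23e-06). For MCM10, which acts at helicase activation, the overexpression libraries gave 8.73, 8.4 and 8.14 FPKM, against 11.5, 9.84 and 10.7 FPKM in the control libraries. All 3 MCM10 values of the overexpression libraries lay below every control value, with a log2 change of -0.31 (SE 0.0563, limma adjusted p = 0.000538). RFC5, of the clamp loader, held 12.7, 11.6 and 12.5 FPKM in the overexpression libraries, against 14.5, 14.3 and 13.9 FPKM in their controls. The RFC5 groups did not overlap, the overexpression libraries being the lower, and the log2 change was -0.20 (SE 0.0563, limma adjusted p = 0.0121). RFC3, of the same loader, measured 16.5, 16.3 and 16.3 FPKM with overexpression, and its controls 13.6, 14.7 and 15.5 FPKM. Each RFC3 value with overexpression was higher than each control value, a log2 change of 0.16 (SE 0.0372, limma adjusted p = 0.00422).

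Among polymerases 3 fell and PRIM1 rose (0.22). For POLE, the catalytic subunit of the leading strand polymerase epsilon, the overexpression libraries gave 6.23, 5.37 and 5.52 FPKM, against 7.13, 6.72 and 7.7 FPKM in the control libraries. Between groups, POLE did not overlap and was lower with overexpression, by a log2 change of -0.29 (SE 0.0598, limma adjusted p = 0.00155). POLD3, an accessory subunit of polymerase delta, held 6.22, 6.26 and 6.63 FPKM in the overexpression libraries, against 7.63, 7.8 and 8.16 FPKM in their controls. All 3 POLD3 values of the overexpression libraries lay below every control value, with a log2 change of -0.27 (SE 0.0538, limma adjusted p = 0.00121). Neither FEN1 nor LIG1 was called. RRM2, the small ribonucleotide reductase subunit, measured 18.9, 19.4 and 19.5 FPKM with overexpression, and its controls 22.4, 23.3 and 23.5 FPKM. The RRM2 groups did not overlap, the overexpression libraries being the lower, and the log2 change was -0.25 (SE 0.0506, limma adjusted p = 0.00138). For TK1, cytosolic thymidine kinase, the overexpression libraries gave 13.7, 17.4 and 14.3 FPKM, against 12.6, 13.2 and 12.1 FPKM in the control libraries. Each TK1 value with overexpression was higher than each control value, a log2 change of 0.24 (SE 0.0853, limma adjusted p = 0.0437).

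Both cyclin E genes, which activate CDK2 at the start of S phase, were lower. CCNE2, cyclin E2, held 3.86, 3.47 and 3.64 FPKM in the overexpression libraries, against 6.24, 6.2 and 6.21 FPKM in their controls. Between groups, CCNE2 did not overlap and was lower with overexpression, by a log2 change of -0.63 (SE 0.0829, limma adjusted p = 1.99e-05). CCNE1, cyclin E1, measured 3.28, 3.71 and 4.23 FPKM with overexpression, and its controls 5.28, 4.77 and 4.32 FPKM. All 3 CCNE1 values of the overexpression libraries lay below every control value, with a log2 change of -0.29 (SE 0.0967, limma adjusted p = 0.0293). For CLSPN, the checkpoint adaptor, the overexpression libraries gave 4.5, 3.71 and 4.04 FPKM, against 6.24, 5.31 and 5.75 FPKM in the control libraries. The CLSPN groups did not overlap, the overexpression libraries being the lower, and the log2 change was -0.41 (SE 0.066, limma adjusted p = 0.000162). DTL, the CDT1 degradation factor, held 18.3, 16.3 and 17.8 FPKM in the overexpression libraries, against 20.3, 22.7 and 22.2 FPKM in their controls. Each DTL value with overexpression was lower than each control value, a log2 change of -0.30 (SE 0.0621, limma adjusted p = 0.00164). UHRF1 was the other fall of this role (-0.22).

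None of the 4 rises and 6 of the 14 falls (MCM4, MCM10, POLA2, POLE, POLD3 and RRM2) were also called against the other empty vector control of SK-N-BE(2), by which 20.3% of all tested genes were higher and 20% lower. CCNE2 was not called against that control (0.067, limma adjusted p = 0.562), RFC3 was called lower there (-0.39, limma adjusted p = 1.03e-07) and MCM6 higher (0.28, limma adjusted p = 7.47e-06). In fits that left out 1 library, the call was lost for CCNE1 without overexpression 1 or 2 or control 1 or 2 (log2 -0.29 to -0.22, limma adjusted p 0.0552 to 0.132) and POLA2 without overexpression 2 or control 2 (log2 -0.23 to -0.18, limma adjusted p 0.0571 to 0.0725). It was lost for PRIM1 without overexpression 2 (log2 0.18, limma adjusted p 0.0695) and RFC5 without overexpression 2 (log2 -0.16, limma adjusted p 0.0744). The call was also lost for TK1 without overexpression 2 or 3 or control 1 or 3 (log2 0.14 to 0.27, limma adjusted p 0.0527 to 0.276) and UHRF1 without any 1 of the 6 libraries (log2 -0.24 to -0.21, limma adjusted p 0.0596 to 0.118). When the spread was estimated from the groups compared alone, 0 members were called higher and 9 lower, and 6.07% of all tested genes were called, against 29.7%. The calls lost were those of CDT1 (0.0527), RFC3 (0.142), PRIM1 (0.0738), TK1 (0.157), POLE (0.0727), POLA2 (0.0952), RFC5 (0.0794), CCNE1 (0.12) and DTL (0.0552), with the limma adjusted p in parentheses. Markers of other cell states moved with this comparison too, with mesenchymal sums of 308 to 366 FPKM in the overexpression libraries, against 264 to 283 FPKM in the controls, and fibroblast and stroma sums of 196 to 216 against 168 to 177 FPKM. Of the markers, 2 of 7 mesenchymal ones were called higher and 4 lower, and 4 of 8 stromal ones higher and 2 lower. Their part in the result was not tested.

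Most replication genes were higher with overexpression in SH-SY5Y than in its own empty vector control. Rises were called in every role and were led by RRM2, CCNE2 and TYMS, so 2 of the 3 largest were enzymes of nucleotide supply. Of the 42 genes, 29 were called higher (69%), 1 lower and 12 not called, against 15.4% higher and 17.2% lower among all tested genes. The median log2 change was 0.25 over the members and -0.0081 over all tested genes. The 2 empty vector controls of the line differed by more, with a median of -0.36 over the members (knockdown control minus overexpression control) and 35 members called lower. The part of such a difference between vector cells in the rise was not tested. In 35 members every overexpression library lay above every control library, which held for 23% of all tested genes.

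Licensing rose in 9 of 10 genes, CDT1 being the exception at 0.074. MCM4, an MCM ring subunit, measured 41.7, 43 and 44.9 FPKM with overexpression, and its controls 32.1, 31.8 and 32.8 FPKM. Between groups, MCM4 did not overlap and was higher with overexpression, by a log2 change of 0.41 (SE 0.0482, limma adjusted p = 1.93e-06). For MCM7, of the same ring, the overexpression libraries gave 123, 128 and 131 FPKM, against 94.2, 97.3 and 98.5 FPKM in the control libraries. All 3 MCM7 values of the overexpression libraries lay above every control value, with a log2 change of 0.40 (SE 0.0636, limma adjusted p = 7.74e-05). GINS1, of the GINS complex, held 16.6, 15.1 and 16.5 FPKM in the overexpression libraries, against 11.5, 12.4 and 11.5 FPKM in their controls. The GINS1 groups did not overlap, the overexpression libraries being the higher, and the log2 change was 0.41 (SE 0.0547, limma adjusted p = 8.62e-06). CDC45, its helicase partner, measured 16.4, 17.6 and 18.7 FPKM with overexpression, and its controls 14, 14 and 14 FPKM. Each CDC45 value with overexpression was higher than each control value, a log2 change of 0.31 (SE 0.0484, limma adjusted p = 6.66e-05). GINS4 was the 1 member called lower (-0.25, SE 0.0618, limma adjusted p = 0.00384). For RFC3, a clamp loader subunit, the overexpression libraries gave 40.9, 41.1 and 41.2 FPKM, against 28.7, 30.7 and 29.4 FPKM in the control libraries. Between groups, RFC3 did not overlap and was higher with overexpression, by a log2 change of 0.46 (SE 0.0372, limma adjusted p = 2.11e-08). PCNA, the clamp, held 153, 158 and 163 FPKM in the overexpression libraries, against 128, 140.4 and 139 FPKM in their controls. All 3 PCNA values of the overexpression libraries lay above every control value, with a log2 change of 0.22 (SE 0.0724, limma adjusted p = 0.0259).

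Polymerase genes rose in 4 of 7 cases, and both Okazaki fragment enzymes rose. POLE2, the second subunit of polymerase epsilon, measured 6.1, 6.06 and 6.38 FPKM with overexpression, and its controls 5.31, 4.3 and 4.65 FPKM. The POLE2 groups did not overlap, the overexpression libraries being the higher, and the log2 change was 0.32 (SE 0.0591, limma adjusted p = 0.000286). For POLA2, of polymerase alpha, the overexpression libraries gave 10.2, 11.2 and 11.4 FPKM, against 8.57, 10.0 and 8.34 FPKM in the control libraries. Each POLA2 value with overexpression was higher than each control value, a log2 change of 0.26 (SE 0.07, limma adjusted p = 0.00669). FEN1, the flap nuclease, held 65.2, 67.4 and 74.2 FPKM in the overexpression libraries, against 56.5, 58.1 and 59.1 FPKM in their controls. Between groups, FEN1 did not overlap and was higher with overexpression, by a log2 change of 0.25 (SE 0.065, limma adjusted p = 0.00643). LIG1, the ligase, measured 13.7, 14.9 and 14.4 FPKM with overexpression, and its controls 12.7, 12.3 and 12.6 FPKM. All 3 LIG1 values of the overexpression libraries lay above every control value, with a log2 change of 0.18 (SE 0.0595, limma adjusted p = 0.0274).

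All 4 nucleotide supply genes rose. For RRM2, the limiting subunit of ribonucleotide reductase in the cell cycle, the overexpression libraries gave 28.8, 29.8 and 30.6 FPKM, against 18.5, 18.9 and 19.8 FPKM in the control libraries. The RRM2 groups did not overlap, the overexpression libraries being the higher, and the log2 change was 0.61 (SE 0.0506, limma adjusted p = 2.76e-08). TYMS, thymidylate synthase, held 77, 75 and 79.2 FPKM in the overexpression libraries, against 51.9, 54.9 and 53 FPKM in their controls. Each TYMS value with overexpression was higher than each control value, a log2 change of 0.53 (SE 0.0686, limma adjusted p = 7.55e-06). CCNE2, cyclin E2, measured 4.95, 5.05 and 4.08 FPKM with overexpression, and its controls 2.6, 3.07 and 2.95 FPKM. Between groups, CCNE2 did not overlap and was higher with overexpression, by a log2 change of 0.55 (SE 0.0829, limma adjusted p = 3.54e-05). E2F1 and CCNE1 were not called. For UHRF1, the maintenance methylation factor, the overexpression libraries gave 30.6, 29.9 and 30.4 FPKM, against 22.5, 23 and 24.7 FPKM in the control libraries. All 3 UHRF1 values of the overexpression libraries lay above every control value, with a log2 change of 0.36 (SE 0.079, limma adjusted p = 0.00149). CLSPN, claspin, held 11.2, 11.5 and 10.5 FPKM in the overexpression libraries, against 9.95, 9.39 and 9.3 FPKM in their controls. The CLSPN groups did not overlap, the overexpression libraries being the higher, and the log2 change was 0.20 (SE 0.066, limma adjusted p = 0.0262). RRM2 shares exon sequence with another gene on its strand, and CCNE2 with INTS8 on the opposite strand.

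All 29 rises were also called against the other empty vector control of SH-SY5Y, by which 26.5% of all tested genes were higher and 28.9% lower. That control was itself called lower than the overexpression control in 35 members and higher in 0. The swap thus enlarged the rises (median log2 change 0.58) and was not a separate check of them. In fits that left out 1 library, the call was lost for CLSPN without overexpression 1 or 2 or control 2 or 3 (log2 0.17 to 0.19, limma adjusted p 0.0716 to 0.0962) and LIG1 without overexpression 2 or 3 or control 1 or 2 or 3 (log2 0.15 to 0.19, limma adjusted p 0.0521 to 0.106). It was lost for PCNA without overexpression 2 or 3 or control 1 (log2 0.18 to 0.22, limma adjusted p 0.0598 to 0.12) and TK1 without overexpression 3 or control 1 or 2 (log2 0.24 to 0.26, limma adjusted p 0.0541 to 0.0703). Of the called members without a value here, 4 lost the call when 1 library was left out. Without a filter on low values the calls of CLSPN (0.057), LIG1 (0.0558), PCNA (0.0622) and PRIM1 (0.0599) were lost, with the limma adjusted p in parentheses. Of the 35 genes called lower with knockdown in SH-SY5Y, 23 were called higher with overexpression, 65.7% of the first list and 79.3% of the 29 in the second. Over all 42 members 69% were called higher with overexpression, so the genes that fell with knockdown were not called higher more often than the members as a whole. Among all tested genes 11.5% of those lower with knockdown were called higher with overexpression. The group means stood in the order knockdown, knockdown control, overexpression control, overexpression from low to high in 34 of the 42 genes, and in 11.4% of all tested genes. The middle step lies between the empty vector controls. Their NDUFS6 was 11.1 to 12.1 FPKM (knockdown control) and 10.2 to 11.5 FPKM (overexpression control). Over the members, the knockdown control minus the overexpression control had a median log2 difference of -0.36. The medians were -0.47 with knockdown and 0.25 with overexpression, each against its own control. The order thus did not follow the level of NDUFS6 at the middle step. Summed over the 42 genes, the level in SH-SY5Y was 567 to 578 FPKM with knockdown against 754 to 780.2 FPKM in its control, and 1256 to 1317 FPKM with overexpression against 1022 to 1066 FPKM. In SK-N-BE(2) the sums were 696 to 802 FPKM with knockdown against 811 to 841 FPKM, and 757 to 835 FPKM with overexpression against 825 to 859.8 FPKM.

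**Figure D4:**
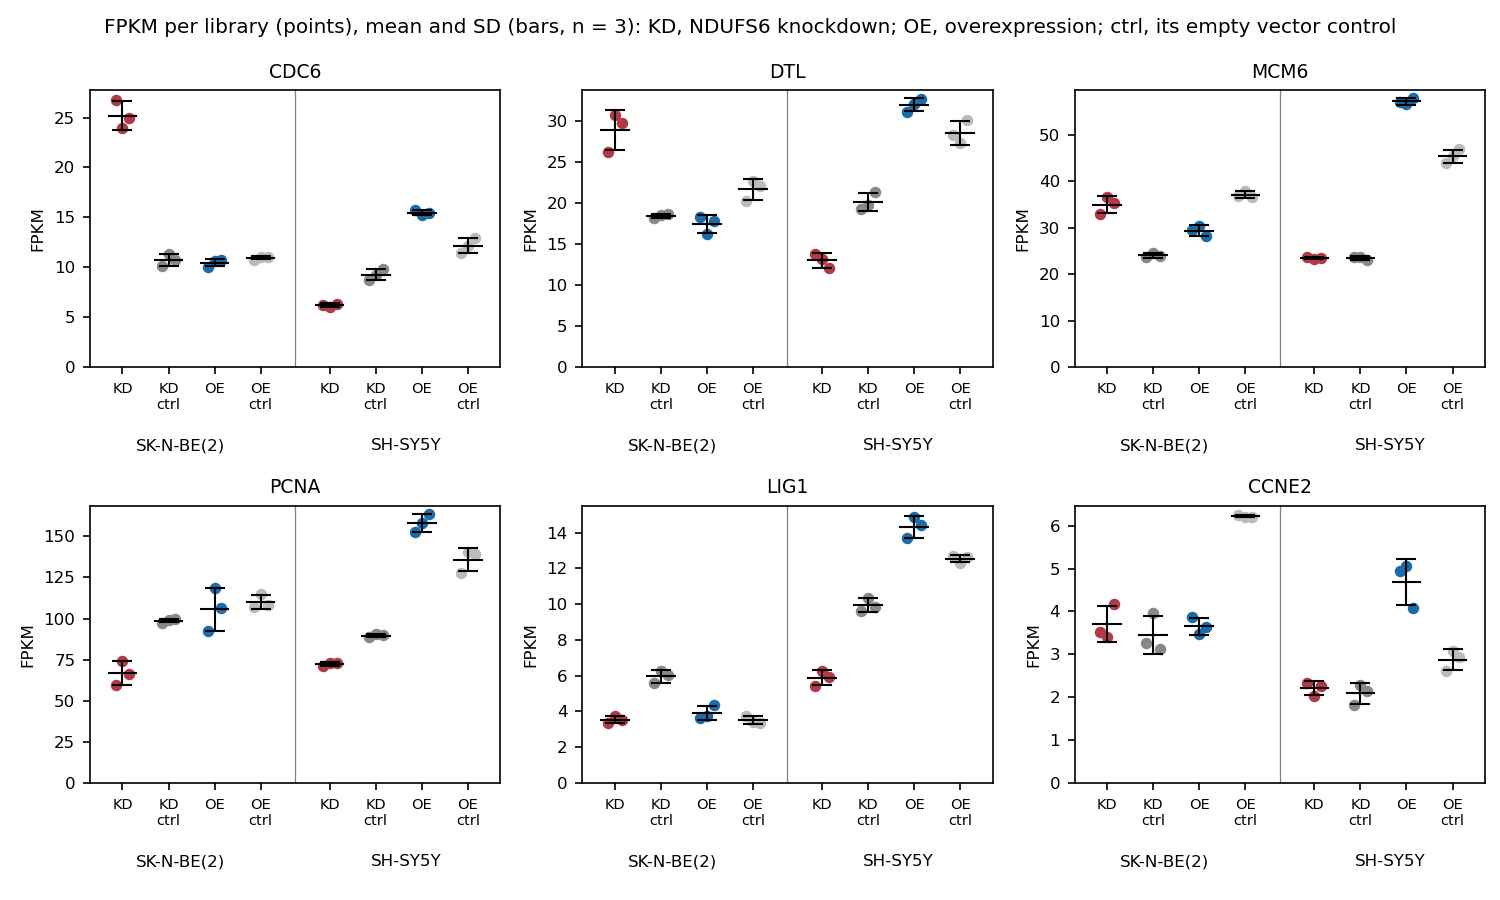
Points give FPKM of 6 genes in each library, with bars for mean and SD (n = 3), for knockdown (KD), overexpression (OE) and their empty vector controls (ctrl) in both lines. Within SK-N-BE(2) CDC6 and DTL are highest with knockdown, within SH-SY5Y they are lowest with knockdown, and CCNE2 is higher in the overexpression control than in the knockdown control of SK-N-BE(2).

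The effect of overexpression also differed between the lines. The change in SK-N-BE(2) minus that in SH-SY5Y was called negative for 30 of 42 members (71.4%) and positive for 2, CDT1 and GINS4, against 18.5% and 18.3% of all tested genes. With a fixed sum per library 32 were negative and 0 positive. CCNE2 changed by -0.63 in SK-N-BE(2) and 0.55 in SH-SY5Y, a difference of -1.19 (SE 0.117, limma adjusted p = 2.97e-07). RRM2 changed by -0.25 in SK-N-BE(2) and 0.61 in SH-SY5Y, a difference of -0.86 (SE 0.0716, limma adjusted p = 3.43e-08). The ring subunits MCM4 (-0.69, SE 0.0681, limma adjusted p = 2.98e-07), MCM5 (-0.68, SE 0.0612, limma adjusted p = 9.62e-08) and MCM6 (-0.66, SE 0.0527, limma adjusted p = 2.4e-08) followed, with CLSPN (-0.61, SE 0.0934, limma adjusted p = 4.78e-05). The overexpression of NDUFS6 was itself far smaller in SK-N-BE(2), so the lines were not compared at a matched level. In fits that left out 1 library, the call was lost for CDT1 without SK-N-BE(2) overexpression 2 or 3 or SK-N-BE(2) control 1 or 2 or 3 or SH-SY5Y overexpression 1 or 2 or SH-SY5Y control 2 or 3 (log2 0.30 to 0.41, limma adjusted p 0.0522 to 0.119) and GINS4 without SK-N-BE(2) overexpression 3 or SK-N-BE(2) control 2 or SH-SY5Y overexpression 1 or SH-SY5Y control 3 (log2 0.22 to 0.24, limma adjusted p 0.0566 to 0.0689). Of the called members without a value here, 7 lost the call when 1 library was left out.

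The 2 kinds of empty vector control cells differed in these genes, mostly in SH-SY5Y, although neither carried an NDUFS6 construct. In SK-N-BE(2), 10 of the 42 members were called higher and 9 lower in the knockdown control than in the overexpression control. Of all tested genes 15.5% were higher and 19% lower, so the share of members lower was near the background. With a fixed sum per library 6 members were higher and 16 lower. CCNE2, cyclin E2, held 3.27, 3.97 and 3.14 FPKM in the knockdown controls and 6.24, 6.2 and 6.21 FPKM in the overexpression controls, with no overlap and a log2 difference of -0.70 (SE 0.0829, limma adjusted p = 1.57e-06). MCM6, of the MCM ring, held 23.6, 24.5 and 23.9 FPKM in the knockdown controls and 36.8, 38 and 36.6 FPKM in the overexpression controls, with no overlap and a log2 difference of -0.61 (SE 0.0373, limma adjusted p = 1.98e-10). POLD1, of polymerase delta, held 8.33, 9.22 and 8.65 FPKM in the knockdown controls and 4.7, 5.33 and 4.96 FPKM in the overexpression controls, with no overlap and a log2 difference of 0.70 (SE 0.0694, limma adjusted p = 1.57e-07). LIG1, the ligase, held 5.57, 6.25 and 6.06 FPKM in the knockdown controls and 3.76, 3.39 and 3.36 FPKM in the overexpression controls, with no overlap and a log2 difference of 0.63 (SE 0.0595, limma adjusted p = 8.63e-08). In SH-SY5Y, 35 members were called lower (83.3%) and 0 higher, against 17.8% and 18.4% of all tested genes. MCM6, of the MCM ring, held 23.6, 23.8 and 23.1 FPKM in the knockdown controls and 44, 45.3 and 46.8 FPKM in the overexpression controls, with no overlap and a log2 difference of -0.92 (SE 0.0373, limma adjusted p = 3.56e-13). MCM5, of the same ring, held 6.75, 6.76 and 6.61 FPKM in the knockdown controls and 11.9, 11.5 and 12 FPKM in the overexpression controls, with no overlap and a log2 difference of -0.73 (SE 0.0432, limma adjusted p = 7.3e-11). UHRF1, the methylation factor, held 14.1, 13.4 and 14.4 FPKM in the knockdown controls and 22.5, 23 and 24.7 FPKM in the overexpression controls, with no overlap and a log2 difference of -0.71 (SE 0.079, limma adjusted p = 6.93e-07). GINS2, of the GINS complex, held 9.16, 7.76 and 8.38 FPKM in the knockdown controls and 13.1, 13.8 and 14.2 FPKM in the overexpression controls, with no overlap and a log2 difference of -0.64 (SE 0.0805, limma adjusted p = 3.1e-06). MCM6 was thus lower in the knockdown control of both lines. Mesenchymal markers were also higher in the knockdown control of SH-SY5Y, with all 7 tested called and sums of 153 to 161 against 55.5 to 57.8 FPKM, while in SK-N-BE(2) they summed to 213 to 216 FPKM in the knockdown controls and 264 to 283 FPKM in the overexpression controls. The part of these markers in the result was not tested. With 1 library left out, 4 of the 19 calls in SK-N-BE(2) and 5 of the 35 in SH-SY5Y were lost, none of them of a gene given by value in that line.

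Between the control cells of the lines, 14 of the 42 members were called higher and 20 lower in SK-N-BE(2) than in SH-SY5Y. Of all tested genes 33.5% were higher and 43.8% lower, so both shares were near the background. The 4 members with the largest differences were chosen after their values were seen. TYMS had a lowest, median and highest value of 16.4, 17.6 and 20.6 FPKM in the 6 control libraries of SK-N-BE(2), against 40.3, 46.6 and 54.9 FPKM in those of SH-SY5Y, a log2 difference of -1.34 (SE 0.0485, limma adjusted p = 1.03e-15). LIG1 had a lowest, median and highest value of 3.36, 4.67 and 6.25 FPKM in the 6 control libraries of SK-N-BE(2), against 9.63, 11.3 and 12.7 FPKM in those of SH-SY5Y, a log2 difference of -1.12 (SE 0.0421, limma adjusted p = 1.87e-15). RFC2 had a lowest, median and highest value of 16.6, 18 and 20.5 FPKM in the 6 control libraries of SK-N-BE(2), against 29.7, 34.2 and 39.1 FPKM in those of SH-SY5Y, a log2 difference of -0.87 (SE 0.0563, limma adjusted p = 1.64e-11). GINS3 had a lowest, median and highest value of 4.8, 5.44 and 6.92 FPKM in the 6 control libraries of SK-N-BE(2), against 2.19, 2.92 and 4.04 FPKM in those of SH-SY5Y, a log2 difference of 0.75 (SE 0.0471, limma adjusted p = 9.7e-12). Of these, TYMS, LIG1 and RFC2 were lower and GINS3 higher in SK-N-BE(2). With 1 library left out, 3 of the 34 calls were lost, none of them of these 4 genes.

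Genes of the same pathway outside the 42 were counted by list, against 28.3% lower and 27.4% higher of all tested genes with knockdown in SK-N-BE(2) and 29.6% and 26.3% in SH-SY5Y. Other origin factors were called 8 lower and 2 higher of 15 with knockdown in SK-N-BE(2) and 9 lower and 1 higher of 15 in SH-SY5Y, and both lines lowered TICRR (-0.90 and -0.94), which recruits CDC45, and DBF4 (-0.65 and -0.74), the activator of the CDC7 kinase. Fork factors were called 8 lower and 0 higher of 16 and 13 lower and 2 higher of 16, with falls of TIMELESS (-0.52 and -0.76) and WDHD1 (-0.46 and -0.80), which protect and couple the fork. Nucleotide synthesis genes were called 7 lower and 2 higher of 11 and 7 lower and 1 higher of 11, led by CAD (-0.85), which starts pyrimidine synthesis, in SK-N-BE(2) and by PPAT (-1.20), which starts purine synthesis, in SH-SY5Y. S phase repair and chromatin genes were called 10 lower and 3 higher of 18 (median -0.18) and 17 lower and 0 higher of 18 (median -0.61), with FANCI, a Fanconi anemia repair factor, lower in both (-0.32 and -0.79).

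Regulators of E2F, RB and CDK were called 14 lower and 6 higher of 25 with knockdown in SK-N-BE(2) and 10 lower and 7 higher of 25 in SH-SY5Y, the SH-SY5Y shares of 40.0% and 28% lying near the background. CDKN1A, the p21 inhibitor of CDKs, averaged 13.5 ± 2.66 FPKM with knockdown in SK-N-BE(2), against 1.03 ± 0.415 FPKM in controls (SD, n = 3, log2 change 2.84). CDKN1B, the p27 inhibitor, averaged 43.3 ± 2.64 against 22.6 ± 0.854 FPKM in SH-SY5Y (0.91). CCNA2, cyclin A2 of S phase and G2, fell in both (-0.98 and -0.85). All 16 mitosis genes were called lower with knockdown in both lines, with medians of -0.90 in SK-N-BE(2) and -1.17 in SH-SY5Y, larger falls than the medians of -0.16 and -0.47 over the replication genes. In SK-N-BE(2) the size of that fall depended on the control. The mitosis sum was 416 to 482 FPKM with knockdown, against 851 to 854 FPKM in its own control and 546 to 573 FPKM in the other.

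Of all tested genes, 16.8% were lower and 12.9% higher with overexpression in SK-N-BE(2), and 17.2% and 15.4% in SH-SY5Y. With overexpression in SK-N-BE(2), origin factors were called 6 lower and 0 higher of 15, fork factors 4 lower and 3 higher of 16, nucleotide synthesis 4 lower and 0 higher of 11, regulators 10 lower and 3 higher of 25 and repair and chromatin genes 8 lower and 0 higher of 18, while mitosis genes were 0 lower and 11 higher of 16, the opposite direction (CCNB1 0.55, CCNB2 0.38). That direction depended on the control. The mitosis sum with overexpression was 627 to 694 FPKM, above its own control (546 to 573 FPKM) but below the knockdown control of the line (851 to 854 FPKM). In SH-SY5Y the same lists were called 0 lower and 7 higher of 15, 1 lower and 6 higher of 16, 2 lower and 6 higher of 11, 5 lower and 12 higher of 25 and 0 lower and 10 higher of 18, and mitosis genes 0 lower and 5 higher of 16. E2F8, an E2F repressor that is itself an E2F target, rose (0.66), as did E2F3, an E2F activator (0.34).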

How the data were processed

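Total RNA of 24 libraries was sequenced. Per the labels, TRIzol extraction was followed by strand-specific TruSeq preparation and NovaSeq sequencing, in 1 batch. The submitters' processing notes name FastQC 0.11.2, STAR and StringTie 1.3.1c and the build hg38. FPKM per gene was computed by the authors and deposited without counts, so depth is unknown and precision rests on 3 libraries a group. Counting settings and annotation release were not found in the labels.

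Genes reaching 1 FPKM in 3 or more libraries were tested on log2(FPKM + 1). One limma model (limma 3.58.1, R 4.3.3) covered the 24 libraries in 8 groups, leaving 16 residual degrees of freedom, with trended and robust variance moderation. Tests were two-sided with Benjamini-Hochberg adjustment over 15903 genes. As a check of the code, the procedure was also run on simulated data with independent noise and few changed genes. That setting is unlike these data, so it gives no error rate for them. Constructs were set against their own empty vectors, the lines by an interaction, and the empty vectors against each other. Named genes were up to 2 called members per role by size of change, up to 6 per difference between lines, 4 per line between controls, and up to 3 per pathway list by adjusted p. Members and lists were chosen with earlier results of these data known. Exon overlaps came from a gene annotation of hg38 and promoters from RefSeq (GRCh38.p14). Alternatives were a pseudocount of 0.1, no filter, a mean of at least 5 FPKM, a fixed sum per library, median of ratios scaling, no trend, a fit of only the groups compared, the other empty vector control, a replicate block, and leaving out each library.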

Additional observations from a re-analysis of the deposited data

Results flagged for a closer look

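In 12 results the effect of a construct differed between the lines by a test of the difference itself, the log2 change in SK-N-BE(2) minus that in SH-SY5Y. For knockdown these were CDC6 1.67 (95% interval 1.52 to 1.82, limma adjusted p = 1.64e-13), DTL 1.21 (95% interval 1.03 to 1.40, limma adjusted p = 4.33e-10), CDT1 1.17 (95% interval 0.87 to 1.48, limma adjusted p = 9.43e-07), PRIM1 0.95 (95% interval 0.76 to 1.13, limma adjusted p = 1.18e-08), ORC1 0.94 (95% interval 0.78 to 1.11, limma adjusted p = 2.98e-09) and CDC45 0.86 (95% interval 0.72 to 1.01, limma adjusted p = 1.69e-09). For overexpression they were CCNE2 -1.19 (95% interval -1.43 to -0.94, limma adjusted p = 2.97e-07), RRM2 -0.86 (95% interval -1.01 to -0.71, limma adjusted p = 3.43e-08), MCM4 -0.69 (95% interval -0.83 to -0.54, limma adjusted p = 2.98e-07), MCM5 -0.68 (95% interval -0.81 to -0.55, limma adjusted p = 9.62e-08), MCM6 -0.66 (95% interval -0.77 to -0.54, limma adjusted p = 2.4e-08) and CLSPN -0.61 (95% interval -0.81 to -0.41, limma adjusted p = 4.78e-05). Only the 6 largest of each kind are given, of 29 knockdown and 32 overexpression differences that were called. Several of these differences include a change in SK-N-BE(2) that moved with the control used. Against the other empty vector control of that line the overexpression change was 0.067 for CCNE2, 0.28 for MCM6, 0.097 for MCM5 and -0.029 for CLSPN, where it had been -0.63, -0.33, -0.29 and -0.41 against its own, while it was -0.28 for RRM2 and -0.21 for MCM4, against -0.25 and -0.27. The knockdown change of ORC1 was 0.13 against that control, where it had been 0.32. The differences between lines were not tested with the other controls. No group had the 4 or more libraries that a check for single outlying libraries needs.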

How the results depend on the processing

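Counts of members called kept their direction and stayed within 1.5 times under most alternatives. With a fixed sum per library the counts were 14 higher for knockdown in SK-N-BE(2), 0 higher for knockdown in SH-SY5Y, 2 higher for overexpression in SK-N-BE(2), 1 negative for the knockdown difference, 0 positive for the overexpression difference, and 6 higher and 16 lower for the controls of SK-N-BE(2). That scaling moved the share of higher calls among all calls to 60.8% (49.2% as deposited) for knockdown in SK-N-BE(2), 35.7% (47%) for knockdown in SH-SY5Y, 32.2% (43.4%) for overexpression in SK-N-BE(2), 69.5% (52.8%) for the knockdown difference, 38.1% (49.8%) for the overexpression difference and 25% (45.1%) for the controls of SK-N-BE(2), and the median of all genes in the knockdown difference was 0.16. Without a filter there were 3 negative knockdown and 0 positive overexpression differences. Against the other control, or with a mean of at least 5 FPKM, 0 members were higher with knockdown in SH-SY5Y. Median of ratios scaling left 13 lower in the line comparison. Fitting only the groups compared gave 0 higher and 9 lower for overexpression in SK-N-BE(2), and 0 positive overexpression differences. Higher and lower counts with 1 library left out were 8 to 9 and 18 to 23 for knockdown in SK-N-BE(2); 0 to 1 and 35 to 35 for knockdown in SH-SY5Y; 2 to 6 and 10 to 13 for overexpression in SK-N-BE(2), 23 to 27 and 1 to 1 for overexpression in SH-SY5Y, 23 to 26 and 3 to 6 for the knockdown difference between lines, 0 to 3 and 24 to 28 for the overexpression difference between lines, 8 to 9 and 8 to 9 for the controls of SK-N-BE(2), 0 to 1 and 31 to 34 for the controls of SH-SY5Y, 13 to 15 and 18 to 20 for the line comparison. Log2 changes that reversed against the other control were LIG1 0.013, MCM6 -0.085, POLD1 0.0042, RFC3 0.36 and TK1 0.14 for knockdown in SK-N-BE(2), GINS3 -0.33 for knockdown in SH-SY5Y, and CCNE1 0.12, CCNE2 0.067, MCM5 0.097, MCM6 0.28, RFC3 -0.39, RFC5 0.060 and TK1 -0.18 for overexpression in SK-N-BE(2). The cause of these shifts was not tested. Equal replicate numbers did not pair the libraries throughout (36 pairs of deviations, median r 0.011, 7 above 0.1), although 6 of the 9 pairs among the knockdown, overexpression and overexpression control libraries of SK-N-BE(2) were above 0.1 (up to 0.438), and with the numbers as a replicate block the counts were 10 higher and 23 lower for knockdown in SK-N-BE(2), 1 and 36 in SH-SY5Y, 6 and 14 for overexpression in SK-N-BE(2), and 31 and 1 in SH-SY5Y. The number of reads per library is unknown, so no depth limit can be given.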
